A study of Sus scrofa with 5 samples.

Results

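The genes described here are 10 heat shock proteins and their co-chaperones: HSPH1, HSPB1, HSPA8, HSPA4, HSP90AA1, HSP90AB1, DNAJB1, HSPD1, HSPE1 and BAG3. They were taken as a given list of names, with earlier results of these data known, and they are 10 of 35670 features in the count matrices, of which 17728 have a gene name. The files name 9 of them by symbol, and HSP90AA1 was found by its gene identifier, ENSSSCG00000002535, through a table of gene names. The question asked of them is how far their level in each cell class varied between pigs of one diet group, beside the difference between the diets.

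The samples were nuclei from the abdominal aorta of 5 castrated male Ossabaw pigs, a miniature breed that becomes obese on a rich diet. The obese group is 3 pigs given the HF/HFru diet, called obese pigs 1 to 3 here, and the control group is 2 pigs given chow, called control pigs 1 and 2. All pigs started at 12 months of age, and the time on the diet is 6 months by the sample labels and 9 months by the series text. Each pig gave 1 library from about 50 mm of frozen vessel, whose wall was dissociated whole in the cold; the nuclei were stained with DRAQ5 and sorted before droplet capture and counting of RNA molecules by their unique identifiers (UMIs). The series title calls the obese aortae atherosclerotic and the control aortae healthy, and no measure of lesions was used here.

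Heat shock proteins are chaperones that hold unfolded proteins and help them fold. When unfolded proteins build up, the transcription factor HSF1 is released from chaperones, binds repeats of inverted GAA and TTC units called heat shock elements, and raises the RNA of many chaperones within minutes. In the artery wall, chaperones hold the contractile and cytoskeletal proteins of smooth muscle cells, and their RNA is also raised by heat, lack of oxygen, oxidants and the handling of tissue.

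Heat shock units were searched for in the 250 bases before the start of each gene model of RefSeq on the Sscrofa11.1 assembly; the deposited files hold no coordinates, and the labels name the build as Sscrofa11. The letters searched were GAANNTTC and TTCNNGAA, each its own reverse complement, which are pairs of inverted units, and a run of 3 alternating units was counted where a further unit followed at the same spacing, so that such a run holds both letter patterns overlapping. A pair was found in 5 of the 10 windows (50.0%) and in 10.7% of 20664 windows of protein-coding genes, and a run of 3 units in 3 of 10 (30.0%) and in 0.324% (67 windows). CCAAT, searched on both strands, was in 4 of the 10 windows (40.0%) and in 32.0% of all. The windows with 3 alternating units, of HSPA8, HSP90AB1 and HSPD1, are shown first, then HSPA4 with a single pair and DNAJB1 without one, since DNAJB1 differed most between the control pigs. Capitals mark the units, and each window runs 5′ to 3′ along its gene's strand and ends at the base before the gene model starts.
HSPA8, chr9:49986761-49987010, minus strand: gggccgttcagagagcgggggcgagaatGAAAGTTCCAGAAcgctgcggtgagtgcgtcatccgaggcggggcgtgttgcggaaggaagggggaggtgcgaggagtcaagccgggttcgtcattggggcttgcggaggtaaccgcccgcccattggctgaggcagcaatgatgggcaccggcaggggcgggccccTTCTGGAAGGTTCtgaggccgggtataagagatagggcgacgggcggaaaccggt
HSP90AB1, chr7:39237049-39237298, plus strand: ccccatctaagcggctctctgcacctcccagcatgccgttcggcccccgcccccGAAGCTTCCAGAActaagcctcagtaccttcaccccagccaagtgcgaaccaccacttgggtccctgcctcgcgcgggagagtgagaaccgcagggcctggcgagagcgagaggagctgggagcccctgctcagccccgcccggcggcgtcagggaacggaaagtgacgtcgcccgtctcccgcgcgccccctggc
HSPD1, chr15:101373499-101373748, minus strand: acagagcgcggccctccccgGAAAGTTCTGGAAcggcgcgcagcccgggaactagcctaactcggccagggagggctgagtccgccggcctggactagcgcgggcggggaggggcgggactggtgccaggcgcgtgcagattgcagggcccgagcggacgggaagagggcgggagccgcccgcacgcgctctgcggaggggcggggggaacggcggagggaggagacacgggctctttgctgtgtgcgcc
HSPA4, chr2:135345474-135345723, plus strand: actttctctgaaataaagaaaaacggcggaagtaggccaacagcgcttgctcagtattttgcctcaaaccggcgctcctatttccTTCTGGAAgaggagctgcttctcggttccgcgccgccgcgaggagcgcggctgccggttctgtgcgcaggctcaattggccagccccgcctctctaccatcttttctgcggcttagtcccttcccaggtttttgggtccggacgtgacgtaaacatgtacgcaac
DNAJB1, chr2:64761422-64761671, plus strand: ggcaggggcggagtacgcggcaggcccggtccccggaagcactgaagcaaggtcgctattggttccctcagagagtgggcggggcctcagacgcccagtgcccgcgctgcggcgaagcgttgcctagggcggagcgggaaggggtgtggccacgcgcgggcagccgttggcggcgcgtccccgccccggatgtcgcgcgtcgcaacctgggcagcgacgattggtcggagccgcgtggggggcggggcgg
HSPA8 held 2 runs of 3 units, the nearer ending 42 bases before the start of the gene model. HSPD1 and HSPE1, which encode the mitochondrial chaperonin HSP60 and its lid HSP10, lie head to head with 520 bases between their gene models, and the run of 3 units in that interval falls in the HSPD1 window. No pair of units was found in the windows of HSPH1, HSPE1, BAG3, DNAJB1 or HSP90AA1, and the HSPB1 window held 1 pair. The models of HSPB1 and HSP90AA1 start at their first coding base, and HSP90AA1 lies on an unplaced scaffold, so these windows may not be promoters. The model of HSP90AB1 starts 8096 bases before its first coding base along the genome, so its window may not be the promoter in use. A match of letters is a description and shows no binding, and the lack of a match says only that the letters are not in this window.

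Total depth ran from 21516249 to 47724416 UMIs per library. After filters and the removal of likely doublets, 5437 to 11075 nuclei were kept per pig, with medians of 1807.5 to 2681 UMIs, and pairs of libraries shared 10 to 29 barcodes. Clustering gave 26 clusters, named from marker genes. Smooth muscle-like nuclei were 59.4% to 63.8% of kept nuclei in the obese pigs and 80.1% and 83.1% in the control pigs. Their summed smooth muscle markers came to between 8024 and 11740 CPM (counts per 1000000 UMIs), all 10 markers present. Nuclei left unnamed, under a threshold set after the values were seen, made up 9.56% to 27.3% in obese pigs and 5.99% and 2.41% in control pigs. Of these, 1 cluster was led by genes of the kidney tubule. Values below are CPM of counts summed over the nuclei of one class in one pig, and are compared within a gene and not between genes, since 3′ counts are not scaled by length. Several of these genes (HSPA8, HSP90AA1, HSP90AB1, HSPD1 and HSPE1) belong to families with near-identical members or processed copies, so reads that fit several places may be lost or split between them. Nuclear counts cannot tell fewer responding cells from less RNA per cell unless nuclei are counted singly, as is done further down for smooth muscle-like nuclei.

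The control pigs lay at opposite ends for most of these genes in smooth muscle-like nuclei. Control pig 1 had the lowest level of 9 of the 10 genes, and control pig 2 had the highest level of 6, obese pig 2 of 3 and obese pig 3 of 1. Summed over the 10 genes, the level was 669, 1390 and 1073 CPM in obese pigs 1 to 3, 206 CPM in control pig 1 and 1932 CPM in control pig 2. The obese pigs thus lay between the control pigs. None of the 10 genes passed edgeR's quasi-likelihood test at an adjusted p of 0.05, where 0.168% of the 17311 genes tested did. At an unadjusted p under 0.05 the count was 1 of 10, against 13.3% of all genes. The DESeq2 Wald test and limma-voom also called 0 members there, as they did in endothelial-like, macrophage-like and all kept nuclei. The pigs also filled the clusters unequally: control pig 1 had most of its smooth muscle-like nuclei in clusters led by COL19A1, IGF2BP2 and HMCN1. Obese pigs 1 and 2 had most of theirs in cluster 0 and the cluster led by PTGER3. Obese pig 3 had most of its own in cluster 0 and the cluster led by RRAD. Control pig 1 also filled cluster 0 in part. Control pig 2 was spread over both kinds, with 996 nuclei in cluster 0, 982 in the cluster led by RRAD, 754 in that led by HMCN1, 740 in that led by COL19A1 and 134 in that led by PTGER3.

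**Figure D1:**
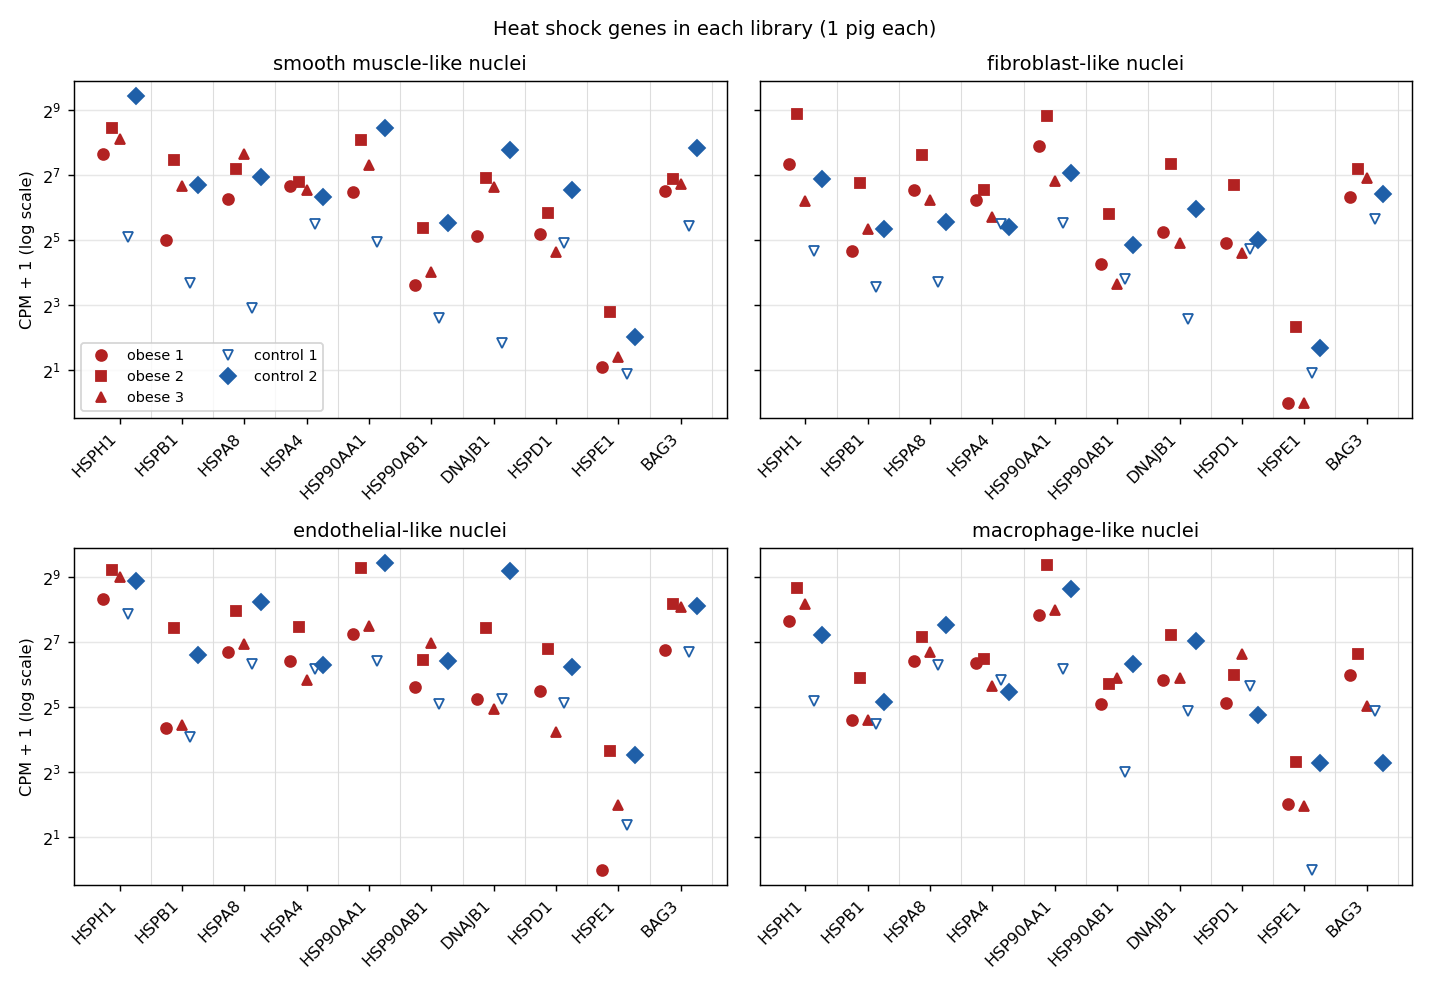
Level of each of the 10 genes in each pig, as CPM + 1 on a log2 axis, in 4 panels for smooth muscle-like, fibroblast-like, endothelial-like and macrophage-like nuclei; red symbols are the 3 obese pigs, the open blue triangle control pig 1 and the blue diamond control pig 2. In smooth muscle-like nuclei control pig 1 is lowest for 9 of the 10 genes, and in fibroblast-like nuclei obese pig 2 is highest for all 10.

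Among the partners of HSP70 in smooth muscle-like nuclei, DNAJB1, the J-domain protein that starts the HSP70 cycle by stimulating its ATPase, differed most within a group. Its level was 33.7, 120 and 99.5 CPM in obese pigs 1 to 3, 2.59 CPM in control pig 1 and 220 CPM in control pig 2, from 417, 2279, 1570, 84 and 3731 UMIs. The control pigs bracketed all 3 obese pigs and differed 84.9-fold, while the obese pigs differed 3.57-fold. edgeR's log2 fold change for obese against control was -0.49 (SE 1.10, adjusted p = 0.886 by its quasi-likelihood test with Benjamini-Hochberg adjustment). HSPH1, a large HSP70 relative that releases ADP from HSP70 so that it can let go of its client, was at 200, 349 and 274 CPM in the obese pigs, 33.3 CPM in control pig 1 and 687 CPM in control pig 2. The control pigs again enclosed the obese pigs, and differed 20.6-fold (log2 fold change -0.49, SE 0.81, adjusted p = 0.841). BAG3, an exchange factor of HSP70 that directs damaged filament proteins in muscle to autophagy, was at 90.3, 117 and 106 CPM in the obese pigs, 42.0 CPM in control pig 1 and 227 CPM in control pig 2. The obese pigs lay within 1.30-fold of each other and between the control pigs, which differed 5.40-fold (log2 fold change -0.45, SE 0.52, adjusted p = 0.762).

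HSPA4, another exchange factor of the HSP110 family, was the gene that least followed this order. It was at 102, 110 and 92.5 CPM in the obese pigs, 44.0 CPM in control pig 1 and 79.1 CPM in control pig 2. All 3 obese pigs were above both control pigs, which was so for this 1 of the 10 genes and for 17.6% of all genes tested, and no member had the obese pigs below both controls. The mean was 101 ± 8.66 CPM in obese pigs (SD, n = 3) and 61.6 ± 24.9 CPM in control pigs (SD, n = 2). The log2 fold change was 0.65 (SE 0.27), with an unadjusted p of 0.0367 and an adjusted p of 0.342 by edgeR's quasi-likelihood test, so it did not pass. The control pigs differed by 0.83 in log2 level, a little more than the group means did (0.77).

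HSPA8, the constitutive HSP70 of the cytosol, also called HSC70, was at 76.2, 147 and 202 CPM in the obese pigs, 6.52 CPM in control pig 1 and 122 CPM in control pig 2. Control pig 2 lay among the obese pigs and control pig 1 far below them, an 18.8-fold gap between the controls (log2 fold change 1.06, SE 0.87, adjusted p = 0.640). The cytosolic HSP90 genes encode the chaperones of kinases and steroid receptors, HSP90AA1 being the inducible form and HSP90AB1 the constitutive one. HSP90AA1 was at 88.5, 269 and 157 CPM in the obese pigs, 30.0 CPM in control pig 1 and 351 CPM in control pig 2. HSP90AB1 was at 11.2, 40.8 and 15.5 CPM in the obese pigs, 5.07 CPM in control pig 1 and 45.7 CPM in control pig 2. Both had control pig 1 lowest and control pig 2 highest, and their log2 fold changes were -0.26 (SE 0.75, adjusted p = 0.916) and -0.28 (SE 0.74, adjusted p = 0.908) in edgeR's quasi-likelihood test.

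HSPB1, the small heat shock protein HSP27, which holds unfolded proteins without ATP and binds actin, was at 31.0, 175 and 102 CPM in the obese pigs, 11.8 CPM in control pig 1 and 102 CPM in control pig 2. It was the member that varied most among the obese pigs by ratio, 5.65-fold, and the controls differed 8.65-fold (log2 fold change 0.74, SE 0.79, adjusted p = 0.735). HSPD1 was at 35.6, 56.1 and 23.7 CPM in the obese pigs, 29.4 CPM in control pig 1 and 93.5 CPM in control pig 2. It was the 1 member with its lowest level in another library than control pig 1, namely obese pig 3 (log2 fold change -0.77, SE 0.45, adjusted p = 0.496). HSPE1 was near the detection limit, with 14, 112 and 26 UMIs in the obese pigs and 27 and 52 in the control pigs, or 1.13, 5.92, 1.65, 0.834 and 3.07 CPM. Obese pig 2 was highest and control pig 1 lowest (log2 fold change 0.52, SE 0.73, adjusted p = 0.807).

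Set against all genes tested, the spread between the control pigs was the feature of these genes in smooth muscle-like nuclei. The median log2 range between the control pigs was 2.98 for the 10 members and 0.30 for all genes tested, and the median range among the obese pigs was 1.50 and 0.51. Each member's control range was at the 91.3rd percentile of all genes (HSPA4) or above, up to the 99.99th (DNAJB1). For 10 of 10 members the control pigs differed from each other by more than the groups did in mean log2 level, which was so for 55.5% of all genes. The median difference between groups, obese minus control in mean log2(CPM + 1), was 0.67 for the members and 0.05 for all genes. That difference of mean logs was positive for 9 of 10 members, while edgeR's fitted fold change was positive for 4 of 10, with a median of -0.27 for the members and 0.01 for all genes. The 2 scales had opposite signs for DNAJB1, BAG3, HSP90AB1, HSPH1 and HSP90AA1, so no direction is given for them. The members' signs also depended on which control pig was in the fit: without control pig 2, 10 of 10 fitted changes were positive (0.33 to 4.98, median 2.27), and without control pig 1, 2 were positive and 8 negative (median -1.14). The direction thus turned with the control pig left out, and no member was called in either fit. HSPA4 and HSPA8 stayed positive whichever of the 5 pigs was left out (0.27 to 1.17 and 0.14 to 4.42).

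**Figure D2:**
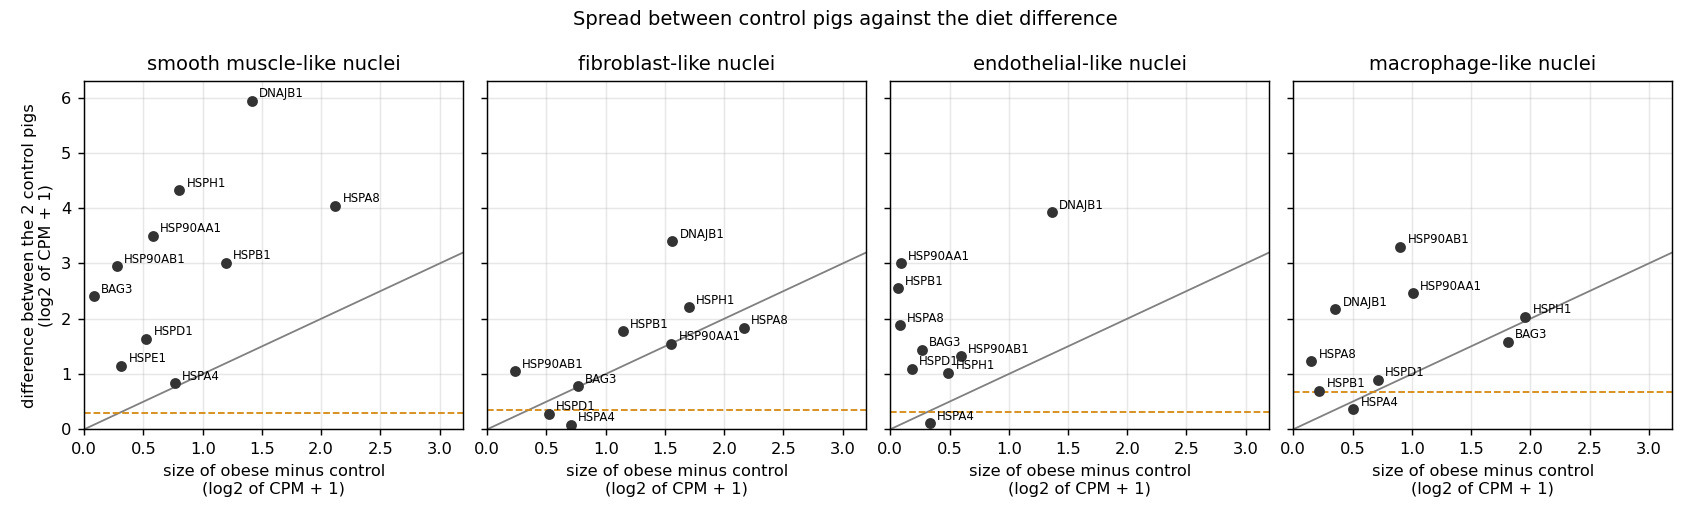
Size of the obese minus control difference in mean log2(CPM + 1), across, and the difference between the 2 control pigs in log2(CPM + 1), up, for each member in 4 classes of nuclei; the grey line marks equality and the orange dashed line the median control difference over all genes tested in the class. In smooth muscle-like nuclei all 10 members lie above the grey line.

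In fibroblast-like nuclei the obese pigs were higher on average for each of the 9 members that passed the filter on low counts, but obese pig 2 accounted for the top of every range. That pig had the highest level of 10 of 10 members, and control pig 1 alone had the lowest level of 6. The summed level was 755, 1783 and 536 CPM in the obese pigs and 231 and 587 CPM in the control pigs, so control pig 2 was above obese pig 3. HSPA8 was at 92.4, 197 and 74.4 CPM in the obese pigs and 12.2 and 46.2 CPM in the control pigs, without overlap, and HSPA4 at 74.1, 93.0 and 51.1 CPM against 44.2 and 41.7 CPM, also without overlap. These were the 2 of 9 members with all obese pigs above both controls, against 13.1% of the 8700 genes tested. The log2 fold change was 2.18 for HSPA8 (SE 0.54, unadjusted p = 0.00176, adjusted p = 0.137) and 0.77 for HSPA4 (SE 0.30, adjusted p = 0.349) in edgeR's quasi-likelihood test.

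HSP90AA1 was at 240, 453 and 113 CPM in the obese pigs and 45.1 and 134 CPM in the control pigs (log2 fold change 1.61, SE 0.53, adjusted p = 0.273). HSPH1 was at 160, 466 and 73.2 CPM against 24.4 and 116 CPM (log2 fold change 1.78, SE 0.71, adjusted p = 0.359), and DNAJB1 at 37.6, 160 and 29.1 CPM against 4.96 and 62.0 CPM (log2 fold change 1.33, SE 0.86, adjusted p = 0.607). In all 3 genes control pig 2 exceeded obese pig 3, so the groups overlapped. BAG3 was at 79.5, 145 and 121 CPM in the obese pigs and 49.6 and 85.7 CPM in the control pigs, HSPB1 at 24.7, 107 and 39.5 CPM against 10.8 and 39.4 CPM, HSPD1 at 29.0, 103 and 23.2 CPM against 25.7 and 31.6 CPM, and HSP90AB1 at 18.3, 54.5 and 11.6 CPM against 13.1 and 28.2 CPM. The groups overlapped for these 4, and their log2 fold changes were 0.81 (SE 0.34), 1.31 (SE 0.63), 0.88 (SE 0.53) and 0.55 (SE 0.58). HSPE1 had no UMI in obese pigs 1 and 3 and was not tested.

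None of the 9 members tested in fibroblast-like nuclei passed, against 0.31% of all genes, and 5 of 9 had an unadjusted p under 0.05 in edgeR's test, against 11.5% of all genes. Their median log2 fold change was 1.31, against 0.01 over all genes tested, and the medians of the log2 range among obese pigs were 2.08 and 0.68. Calls appeared when obese pig 3 was left out: HSPA8 (log2 fold change 2.40, adjusted p = 0.0273) and HSP90AA1 (1.95, adjusted p = 0.0324) then passed edgeR's test. The share of all genes called in that fit is not given here, so these calls are not read as particular to the members. Without control pig 1 the 9 changes were positive in 8 (median 0.67), and without control pig 2 in 9 (median 2.42). The DESeq2 Wald test called HSPA8 alone (adjusted p = 0.00712), a call with no share of all genes beside it, and limma-voom called 0.

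Endothelial-like nuclei had no member with separated groups. DNAJB1 was at 36.6, 170 and 29.5 CPM in the obese pigs, 37.3 CPM in control pig 1 and 582 CPM in control pig 2. Control pig 1 was level with the lower obese pigs and control pig 2 above all of them. The log2 fold change was -1.92 (SE 0.94, adjusted p = 0.235 in edgeR's test). Without control pig 1 it was -2.86, from a fit with 1 control pig left. HSP90AA1 was at 150, 623 and 180 CPM in the obese pigs, 84.5 CPM in control pig 1 and 686 CPM in control pig 2, and HSPA8 at 102, 248 and 121 CPM, 79.8 CPM and 296 CPM. For both, obese pig 2 and control pig 2 were high together and the other 3 pigs low.

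HSPH1 was at 322, 593 and 513 CPM in the obese pigs and 230 and 468 CPM in the control pigs, and BAG3 at 108, 284 and 268 CPM against 101 and 277 CPM. Control pig 1 was the lowest for both, with a smaller gap to the others than in smooth muscle-like nuclei. HSPB1 was at 19.3, 172 and 20.6 CPM in the obese pigs and 15.7 and 96.8 CPM in the control pigs. HSPD1 was at 44.3, 109 and 17.7 CPM against 34.2 and 74.0 CPM, and HSP90AB1 at 48.2, 85.8 and 124 CPM against 33.0 and 83.8 CPM. HSPA4 was at 84.8, 174 and 56.0 CPM in the obese pigs and 71.5 and 77.3 CPM in the control pigs, which differed only 1.08-fold from each other. Its groups overlapped because the obese pigs lay on both sides of the controls. Of the 9 members tested, 0 passed and 0 had an unadjusted p under 0.05, while 8.06% of the 6561 genes tested passed and 25.6% had such a p. No member had the obese pigs above both controls, against 19.6% of all genes. The control pigs differed by more than the groups for 8 of 9 members and for 33.0% of all genes tested. Endothelial-like nuclei were also of unequal depth, with medians of 1456 to 1638 UMIs in the obese pigs and 5046.5 and 5548 in the controls; the part of depth in these values was not tested. They came from 2 clusters that the pigs filled unequally. Cluster 13, with a median of 1238 UMIs, held 155, 200 and 100 nuclei of the obese pigs and 157 and 49 of the control pigs, and cluster 18, led by COL23A1 and with a median of 7103 UMIs, held 42, 24 and 21 against 251 and 146. Levels by cluster were computed after the data were seen and have no test. The members' sum in cluster 13 was 859, 2707 and 1029 CPM in the obese pigs and 395 and 1064 CPM in the control pigs, and in cluster 18 it was 972, 1231 and 1959 CPM against 734 and 2775 CPM. Control pig 1 was lowest in both clusters, and control pig 2 was highest in cluster 18 alone. DNAJB1 in cluster 13 was at 146 CPM in control pig 2, below the 184 CPM of obese pig 2.

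Macrophage-like nuclei were few in the control pigs, 58 and 36 against 412, 1394 and 143 in the obese pigs, and the control values rest on few UMIs. HSPH1 was at 201, 401 and 285 CPM in the obese pigs (266, 2588 and 98 UMIs), 35.2 CPM in control pig 1 and 148 CPM in control pig 2 (5 and 17 UMIs). BAG3 was at 61.8, 98.1 and 32.0 CPM in the obese pigs (82, 633 and 11 UMIs), 28.2 CPM in control pig 1 and 8.70 CPM in control pig 2 (4 UMIs and 1 UMI). For both genes all obese pigs were above both controls, 2 of 9 members, as was so for 17.8% of the 5646 genes tested. The log2 fold change was 1.85 for HSPH1 (SE 0.62, adjusted p = 0.208) and 1.91 for BAG3 (SE 0.76, adjusted p = 0.289) in edgeR's quasi-likelihood test, which called 0 of 9 members and 0.992% of all genes. At an unadjusted p under 0.05 these 2 members stood, against 15.1% of all genes. The nuclei of this class came from 2 clusters. Cluster 9, led by CD83, held 367, 641 and 124 nuclei of the obese pigs and every control nucleus, and cluster 11, led by SHISA9, held 45, 753 and 19 nuclei of the obese pigs and 0 of the control pigs, with medians of 1265 and 5678 UMIs. Inside cluster 9, HSPH1 was at 219, 1204 and 313 CPM in the obese pigs and kept its groups apart, whereas BAG3 was at 64.0, 242 and 27.8 CPM and overlapped with the 28.2 CPM of control pig 1.

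The other members overlapped between groups in macrophage-like nuclei. HSP90AA1 was at 225, 666 and 253 CPM in the obese pigs and 70.4 and 392 CPM in the control pigs, HSPA8 at 84.5, 142 and 102 CPM against 77.5 and 183 CPM, and DNAJB1 at 55.8, 147 and 58.2 CPM against 28.2 and 131 CPM. For these 3 genes obese pig 2 and control pig 2 again held the 2 highest levels. HSPA4 was at 80.7, 88.8 and 49.5 CPM in the obese pigs and 56.3 and 43.5 CPM in the control pigs, and HSPB1 at 23.4, 58.6 and 23.3 CPM against 21.1 and 34.8 CPM. HSPD1 was at 33.9, 62.5 and 98.9 CPM against 49.3 and 26.1 CPM, and HSP90AB1 at 33.2, 51.0 and 58.2 CPM against 7.04 and 78.3 CPM. HSP90AB1 was thus highest and lowest in the 2 control pigs. HSPE1 was not tested in this class or in endothelial-like nuclei. The median log2 fold change was 0.70 for the members and 0.10 for all genes tested; without control pig 1 it was positive in 6 of 9 members, and without control pig 2 in 9 of 9. The smallest p-value that an exact two-sided permutation of 3 against 2 pigs can give is 0.2, so no single gene could pass such a test in any class.

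**Figure D3:**
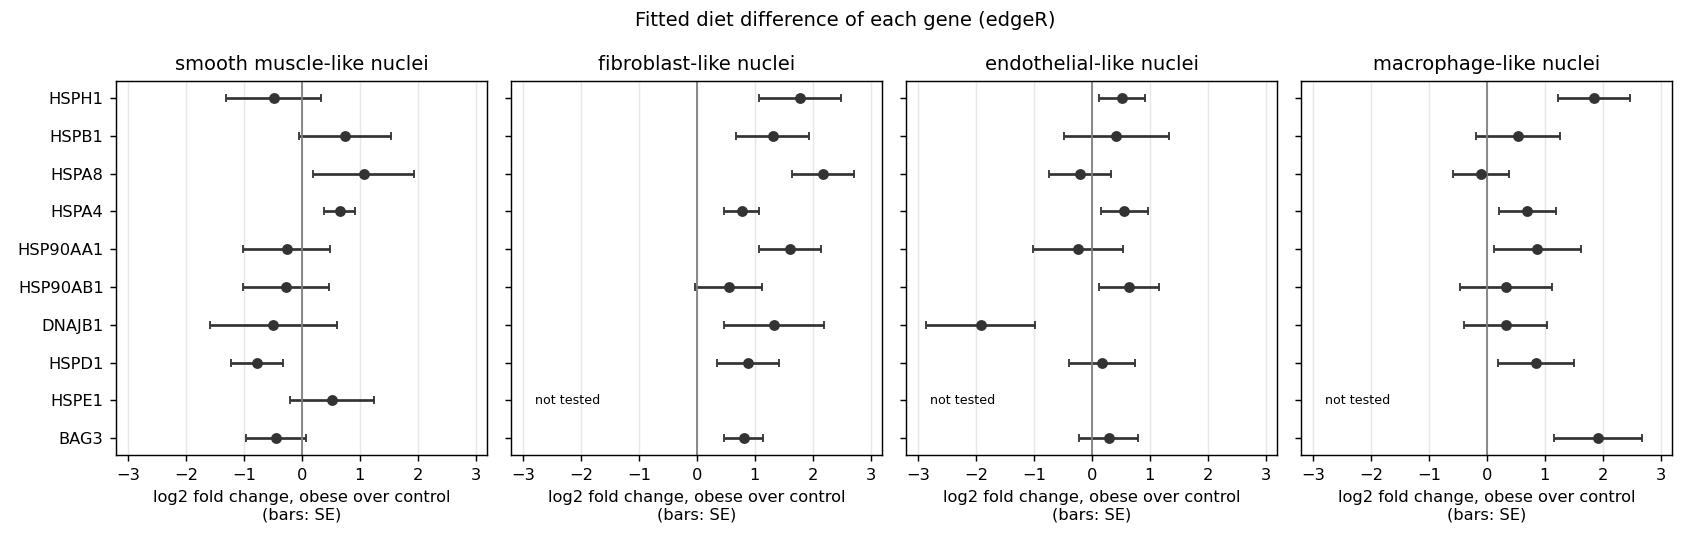
Log2 fold change of obese against control pigs from edgeR for each member in 4 classes of nuclei, with bars of 1 standard error; HSPE1 passed the filter on low counts in smooth muscle-like nuclei alone. Values run from -1.92 (DNAJB1, endothelial-like) to 2.18 (HSPA8, fibroblast-like), and none passed an adjusted p of 0.05.

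Over all kept nuclei of a pig, whatever their class, edgeR called 0 of 10 members and 0.00499% of the 20052 genes tested (1 gene). HSPA4 again had the obese pigs above both controls, 1 of 10 members against 17.8% of all genes, with a log2 fold change of 0.65 (adjusted p = 0.340). It was also the 1 member with an unadjusted p under 0.05. Fitted changes were positive for 5 members and negative for 5.

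Whether the diet difference of a member was unlike that in smooth muscle-like nuclei was tested in a fit over the 4 classes with the pig as a block. No member passed in fibroblast-like (0% of the 12330 genes tested passed), endothelial-like (1.08% passed) or macrophage-like nuclei (1.72% passed), and 0, 2 and 3 of 10 members had an unadjusted p under 0.05. The smallest was that of DNAJB1 in endothelial-like nuclei, whose obese minus control change was 2.60 lower on the log2 scale than in smooth muscle-like nuclei (coefficient -2.60, SE 0.75, adjusted p = 0.114 by edgeR's quasi-likelihood test). HSPA8 followed in endothelial-like (-2.05, SE 0.64, adjusted p = 0.151) and macrophage-like nuclei (-1.72, adjusted p = 0.284). BAG3 and HSPH1 had positive coefficients in macrophage-like nuclei, 2.16 (adjusted p = 0.253) and 1.82 (adjusted p = 0.345).

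Across the classes of nuclei, levels of a gene overlapped between neighbours in the order. Clusters were made from all genes, so what follows is a description with no test. HSP90AB1 was higher in endothelial-like and in macrophage-like than in smooth muscle-like nuclei of the same pig in 5 of 5 pigs, by a median of 2.01 and 0.76 on the log2 scale, and so was HSP90AA1, by 0.96 and 1.20. BAG3 was higher in endothelial-like than in smooth muscle-like nuclei in 5 of 5 pigs (median 1.25) and lower in macrophage-like nuclei in 5 of 5 pigs (median difference -0.56). HSPB1 was lower in fibroblast-like than in smooth muscle-like nuclei in 5 of 5 pigs, and in macrophage-like nuclei in 4 of 5 pigs (median difference -1.53). By the median over pigs, HSPH1 went from 562 CPM in T or NK cell-like nuclei (range 36.3 to 960) and 468 CPM in endothelial-like (230 to 593) through 365 CPM in pericyte-like (49.1 to 483) and 274 CPM in smooth muscle-like (33.3 to 687) to 201 CPM in macrophage-like nuclei (35.2 to 401). It was at 125 CPM in Schwann cell-like (59.6 to 632), 116 CPM in fibroblast-like (24.4 to 466), 76.7 CPM in lymphatic endothelial-like (0 to 1326) and 59.4 CPM in B or plasma cell-like nuclei (0 to 548), and every neighbouring pair of ranges overlapped. For DNAJB1 the highest median was that of smooth muscle-like nuclei, 99.5 CPM (range 2.59 to 220), ahead of T or NK cell-like nuclei, 80.3 CPM (5.18 to 315), and macrophage-like nuclei, 58.2 CPM (28.2 to 147), again with overlapping ranges.

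Control pig 1 had the lowest summed level in 4 of the 5 smaller classes, which were not tested. Summed over the 10 genes, pericyte-like nuclei had 974, 1541 and 1226 CPM in the obese pigs, 298 CPM in control pig 1 and 623 CPM in control pig 2. T or NK cell-like nuclei had 1333, 4021 and 1928 CPM in the obese pigs, 249 CPM in control pig 1 and 2147 CPM in control pig 2, and Schwann cell-like nuclei had 441, 1814 and 764 CPM, 329 CPM and 1604 CPM. Lymphatic endothelial-like nuclei, of which there were 6 to 65 per pig, had 801, 3329 and 944 CPM in the obese pigs and 489 and 843 CPM in the control pigs. Obese pig 2 had the highest sum in each of these 4 classes. B or plasma cell-like nuclei, of which there were 2 to 27 per pig, had 1744, 1088 and 295 CPM in the obese pigs, 369 CPM in control pig 1 and 332 CPM in control pig 2, so that control pig 1 was not the lowest there. Unnamed nuclei had 1317, 2794 and 1278 CPM in the obese pigs, 645 CPM in control pig 1 and 2626 CPM in control pig 2.

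Control pig 1 was low inside smooth muscle-like clusters as well. There were 6 such clusters with enough nuclei of all 5 pigs, and control pig 1 had the lowest summed level of the 10 genes in 6 of 6. The highest was obese pig 2 in 3 of them, control pig 2 in 2 and obese pig 3 in 1. In cluster 0, which every pig shared, the sums were 760, 1474 and 1027 CPM in the obese pigs, 292 CPM in control pig 1 and 1773 CPM in control pig 2. In the cluster led by COL19A1, where control pig 1 had 2629 nuclei, they were 481, 882 and 713 CPM, 187 CPM and 652 CPM. Control pig 2 lay between the obese pigs there. In cluster 10 it lay below all of them, at 390 CPM against 549, 664 and 732 CPM.

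**Figure D4:**
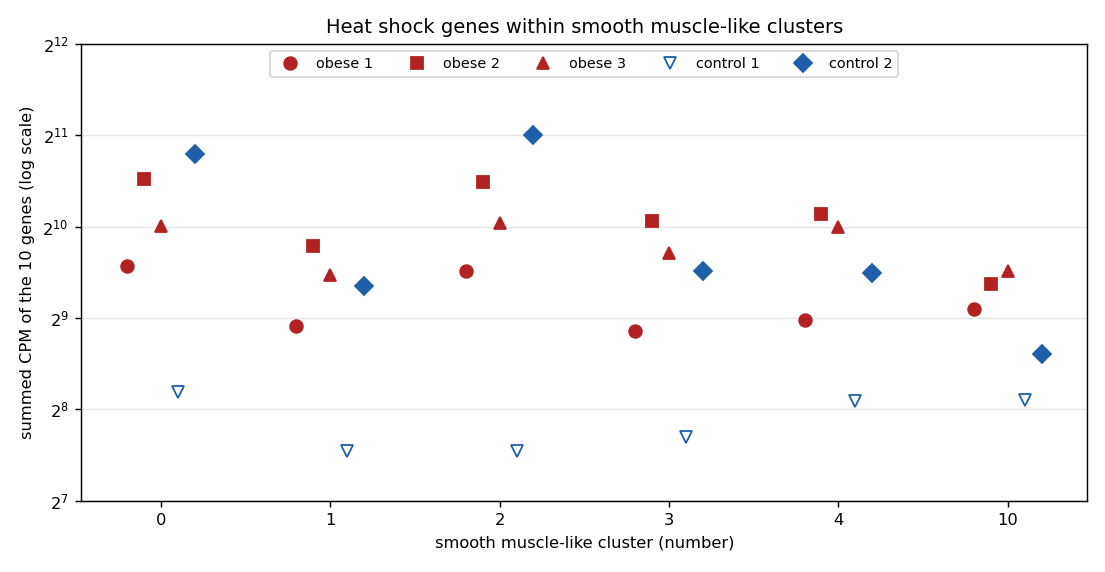
Summed CPM of the 10 genes in each of the 6 smooth muscle-like clusters with enough nuclei of all 5 pigs, by cluster number and by pig, with red symbols for obese and blue for control pigs. Control pig 1 is lowest in each of the 6 clusters.

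Part of the high level of control pig 2 came from few nuclei. The clustering set apart 527 smooth muscle-like nuclei whose 10 leading genes were DNAJB1, HSPA6, HSP70.2, HSPH1, HSP90AA1, BAG3, HSPB8, HSPA8, UBB and CRYAB, of which 5 are members. It held 352 nuclei of control pig 2 (7.79% of its smooth muscle-like nuclei), 137 of obese pig 3 (2.37%), 31 of obese pig 2 (0.546%), 7 of obese pig 1 (0.165%) and 0 of the 8869 of control pig 1. Their median depth was 4882 UMIs, against 2173 for the other smooth muscle-like nuclei, and 9 of 10 smooth muscle markers passed in them. Their name rests on a mean marker position of 0.326, just above a minimum of 0.3 that was set after values were seen. Since the members helped to define this cluster, their levels in it are given as a description. In control pig 2, HSPH1 was at 3596 CPM inside the cluster and 277 CPM in its other smooth muscle-like nuclei, DNAJB1 at 1353 and 60.7 CPM, and HSPA8 at 726 and 37.5 CPM. The ratio in control pig 2 ran from 22.3 for DNAJB1 to 2.89 for HSPA4. In obese pig 3, HSPH1 was at 630 CPM inside the cluster and 249 CPM outside, and HSPA4 was lower inside (70.8 against 94.0 CPM). The members' sum in the cluster was 9148 CPM in obese pig 2, 2603 CPM in obese pig 3 and 10008 CPM in control pig 2. The cluster held 75.8% of the DNAJB1 UMIs of control pig 2's smooth muscle-like nuclei, 73.2% of those of HSPA8, 64.6% of those of HSPH1 and 28.9% of those of HSPA4. In a clustering made without 82 chaperone genes, these nuclei fell into 10 of 24 clusters, with 219 in the largest group and 164 in an unnamed cluster led by TRPC4. With no doublet removal, 363 of the 527 fell in unnamed clusters, 316 of them from control pig 2.

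**Figure D5:**
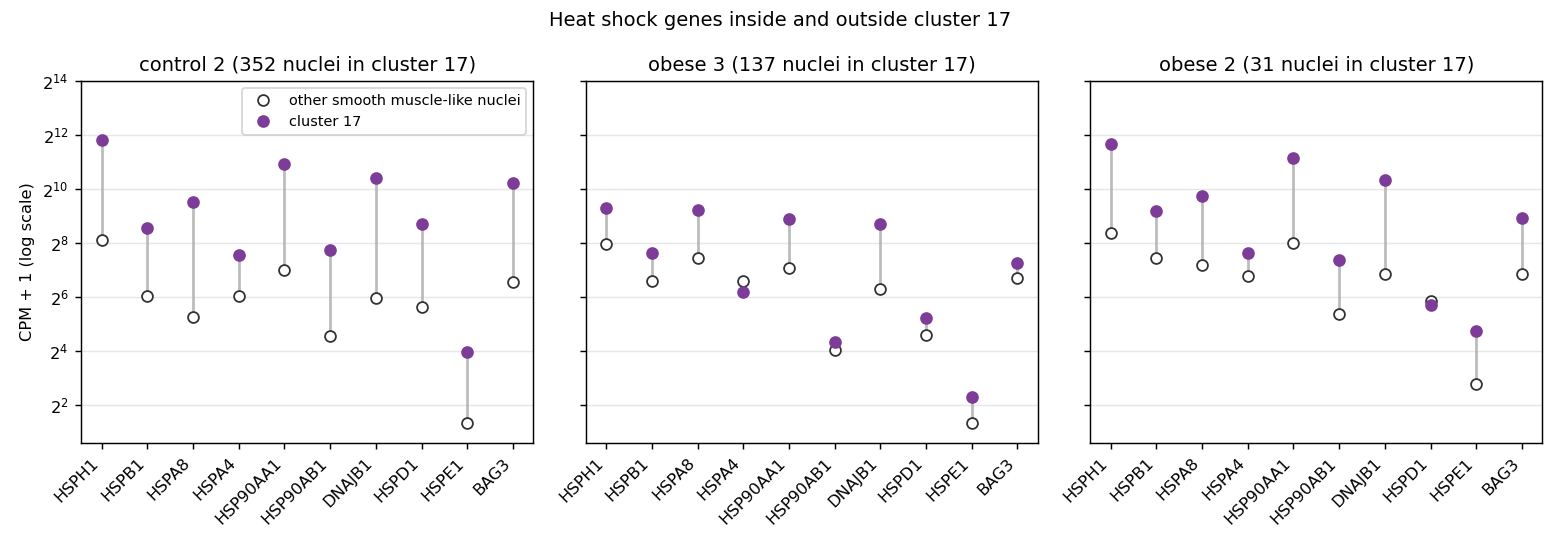
Level of each member as CPM + 1 on a log axis in the cluster led by heat shock genes (purple) and in the other smooth muscle-like nuclei of the same pig (open), for the 3 pigs with enough nuclei in that cluster, obese pigs 2 and 3 and control pig 2. The gap is wide for DNAJB1 and HSPH1 in control pig 2 and obese pig 2, and smaller in obese pig 3. For HSPA4 it is narrow, and in obese pig 3 the level inside the cluster is the lower one. HSPD1 is also slightly lower inside in obese pig 2.

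Without that cluster, an alternative chosen after seeing the data, control pig 1 was still lowest for 9 of 10 members, and obese pig 2 was now the highest for 9 and obese pig 3 for 1. The control pigs then differed 23.4-fold in DNAJB1, 8.32-fold in HSPH1 and 5.76-fold in HSPA8, and the median log2 control range was 1.99. It exceeded the group difference for 7 of 10 members, in place of 10. HSPA8 joined HSPA4 in having separated groups, at 74.6, 142 and 173 CPM in the obese pigs against 6.52 and 37.5 CPM in the control pigs. The members helped to define the cluster, and most of its nuclei were of control pig 2. Leaving it out therefore lowers that pig's levels by construction. The same shares over all genes are not given for this setting, so these counts are not read as results about the members. No member passed edgeR's test in this setting either. In the fit over classes, however, 2 members then passed edgeR's quasi-likelihood test. DNAJB1 did so in endothelial-like nuclei (coefficient -3.57, adjusted p = 0.00271). HSPA8 did so in endothelial-like (-2.97, adjusted p = 0.00271) and macrophage-like nuclei (-2.73, adjusted p = 0.00875). That setting removes nuclei chosen for these genes from 1 class alone. The share of all genes that passed in it is not given here, so the count is not read as a result about the members.

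Counted nucleus by nucleus, control pig 2 had more strongly marked nuclei and control pig 1 almost none. Each smooth muscle-like nucleus was thinned to 1000 UMIs, which leaves out 542 to 1414 shallower nuclei per pig, and the UMIs of the 10 genes were added up. The mean per nucleus was 0.651, 1.49 and 1.02 UMIs for obese pigs 1 to 3, 0.214 in control pig 1 and 1.81 in control pig 2. Nuclei with 10 or more numbered 4 of 3252, 58 of 4606 and 23 of 4356 in the obese pigs, 0 of 7530 in control pig 1 and 216 of 3977 (5.43%) in control pig 2. Nuclei with none made up 60.9%, 36.9% and 51.9% in the obese pigs, 82.5% in control pig 1 and 52.5% in control pig 2. Obese pig 2 therefore had the fewest nuclei without a member UMI, and control pig 2 the most with many.

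A DNAJB1 UMI was found in 3.14%, 9.57% and 6.96% of thinned smooth muscle-like nuclei of the obese pigs, in 0.212% in control pig 1 (exact 95% interval 0.121% to 0.345%) and in 11.1% in control pig 2 (10.1% to 12.1%). Unthinned, the shares were 6.48%, 18.5%, 12.2%, 0.868% and 18.9%, with median depths of 1866, 2219, 1696.5, 2579 and 2490 UMIs. The deepest library per nucleus, control pig 1, was thus the lowest by either count. HSPH1 was found in 11.4%, 20.4% and 13.4% of thinned nuclei in the obese pigs, 2.75% in control pig 1 and 20.6% in control pig 2, and HSPA4 in 8.70%, 9.21% and 6.45%, 4.10% and 6.51%. For HSPA4 control pig 2 fell just above obese pig 3, so the separation of groups seen in its summed level was not seen in its share of nuclei. These intervals cover counting error only, and free RNA in the droplets cannot be set aside by a class known to lack these genes.

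Members were found together in nuclei. In control pig 2, nuclei with a DNAJB1 UMI also had an HSPH1 UMI in 51.8% of cases, against 16.7% of nuclei without DNAJB1, an HSP90AA1 UMI in 42.7% against 10.8%, a BAG3 UMI in 30.5% against 9.25% and an HSPA8 UMI in 28.9% against 4.07%. Of the other 9 members, 9 were found more often beside DNAJB1 in control pig 2 and in obese pig 2, 8 in obese pig 3 and 6 in obese pig 1. In control pig 1, with 16 such nuclei, it was 4 of 9.

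Over 20 points, the 4 main classes of the 5 pigs with each class centred on its own mean, each member was set beside the mean of the others, for the 9 members with enough counts. The Pearson correlation was 0.95 for HSP90AA1, 0.92 for DNAJB1, 0.90 for HSPB1, 0.89 for HSPH1, 0.86 for HSPA8 and 0.73 for HSP90AB1, and lower for HSPA4 (0.64), BAG3 (0.63) and HSPD1 (0.59). The points share pigs, libraries and depth, so these values describe this set and carry no test. Of 5750 other named genes, those most like the members' mean were HSP70.2, an inducible cytosolic HSP70 (0.88), STIP1, the co-chaperone that links HSP70 to HSP90 (0.87), DNAJA1, another J-domain partner (0.78), TOP3A (0.78) and INTS3 (0.77). HSP70.2 was at 186, 547 and 619 CPM in smooth muscle-like nuclei of the obese pigs, 6.98 CPM in control pig 1 and 745 CPM in control pig 2. STIP1 was at 15.6, 60.6 and 21.3 CPM, 10.7 CPM and 47.1 CPM in the same order. The least like were PCBP2 (-0.78) and MARCHF6 (-0.69).

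The wider chaperone system was read from lists of related genes, by the same fits. None passed in smooth muscle-like nuclei among 4 HSF genes and regulators, 4 small heat shock genes, 8 of the HSP70 family, 2 of the HSP90 family, 19 J-domain genes, 24 co-chaperones, 8 subunits of the chaperonin TRiC, 15 genes of the unfolded protein response and 12 of the proteasome and ubiquitin, in the numbers tested. In fibroblast-like and macrophage-like nuclei 0 passed in these 9 lists as well. The co-chaperone list had median log2 fold changes of 0.10, 0.42, 0.68 and 0.51 in smooth muscle-like, fibroblast-like, endothelial-like and macrophage-like nuclei, beside 0.01, 0.01, -0.03 and 0.10 over all genes tested. In the same order of classes the medians were -0.30, 0.25, -1.05 and 0.07 for the HSP70 family, -0.02, 0.21, -0.38 and 0.42 for J-domain genes and 0.20, 0.47, 0.31 and -0.47 for the unfolded protein response; their signs differed between classes.

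Among the endothelial-like nuclei, HSF1 and DNAJB6 of these lists rose in the obese pigs. HSF1, the transcription factor of the heat shock response, was at 44.3, 78.2 and 67.8 CPM in the obese pigs and 25.2 and 20.3 CPM in the control pigs (log2 fold change 1.53, SE 0.38, adjusted p = 0.0385 by edgeR's quasi-likelihood test). DNAJB6, a J-domain protein that keeps aggregating proteins soluble, was at 164, 166 and 180 CPM against 71.1 and 65.1 CPM (1.40, SE 0.30, adjusted p = 0.0232). Both had separated groups, unlike the members in this class. HSF1 lost the call when obese pig 2 or 3 or either control pig was left out, and DNAJB6 when either control pig was. The depth and the clusters of endothelial-like nuclei moved with the groups, as given above. HSF1 had separated groups in both clusters, with 45.8, 65.9 and 83.2 CPM against 8.85 and 11.2 CPM in cluster 13. Those control values rest on 3 UMIs and 1 UMI, and the value of obese pig 3 in cluster 18 (36.1 CPM) on 4 UMIs. DNAJB6 had separated groups in cluster 13. In cluster 18 its level in obese pig 2 (35.5 CPM from 3 UMIs) lay below both control pigs (71.2 and 62.3 CPM).

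Immediate early genes, which mark recent signals and also the handling of tissue, differed between the diet groups in each main class but macrophage-like nuclei. The fitted change was positive for 19 of 19 tested in smooth muscle-like nuclei and 16 of 16 in fibroblast-like nuclei. In endothelial-like nuclei it was positive for 16 of 17, and in macrophage-like nuclei for 5 of 14. In the same order of classes, 3, 6, 11 and 0 passed edgeR's test as higher in obese pigs, and 0 as lower. Over all genes tested, 0.168%, 0.31%, 8.06% and 0.992% passed in these classes, in either direction. In smooth muscle-like nuclei those were KLF2, DUSP1 and FOSL2, with log2 fold changes of 2.52, 2.73 and 1.96 (adjusted p = 0.0495 for each by edgeR's quasi-likelihood test); each lost the call when obese pig 1 or either control pig was left out. The 6 in fibroblast-like nuclei (ATF3, ZFP36, KLF4, KLF2, EGR1 and FOS) lost it without obese pig 1 or control pig 1, and the last 4 of them also without control pig 2; without control pig 1, 0 genes at all passed there. Of 6 that were followed in endothelial-like nuclei, ATF3, FOSL2, EGR1 and FOS kept the call without any 1 pig, while FOSB lost it without control pig 2 and KLF6 without either control pig. The summed level of the list in smooth muscle-like nuclei was 2528, 1568 and 4261 CPM in the obese pigs and 848 and 1267 CPM in the control pigs. Control pig 2, the highest for 6 members, was thus below every obese pig here, and control pig 1 was lowest as for the members. Whether what moved these genes also moved the members was not tested.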

How the data were processed

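The authors deposited raw counts of UMIs, from Cell Ranger (5.0 per the submitters' processing notes, 7.1.0 per the file headers), for 10x 3′ v3.1 libraries of single nuclei, on the build Sscrofa11 per the labels; Seurat 5.0 is also named. The genes and lists described here were chosen with earlier results of these data known.

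Barcodes under 300 detected genes or over 5% mitochondrial UMIs were dropped. Scrublet's automatic threshold marked 0 or 1 barcodes per library, so the top-scoring barcodes at 0.8% per 1000 barcodes were removed instead (260 to 1207 per library). Nuclei were clustered in scanpy 1.11.5 (Python 3.11.15) with 3000 variable genes, 30 components, 20 neighbours and leidenalg 0.10.2 at a resolution of 1.0. A cluster took a class name, ending in "-like", with at least 3 markers at 20 CPM or more and 2 times their 25th percentile over clusters, and a mean marker position of 0.3 or more between that percentile and the highest cluster, a threshold set after the values were seen.

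Counts were summed per pig and class. The 4 main classes, each with at least 20 nuclei in every pig, and all kept nuclei were tested with the quasi-likelihood test of edgeR 4.0.16 (R 4.3.3), with TMM factors, filterByExpr and Benjamini-Hochberg adjustment over all genes tested, called at 0.05; the scripts were tested on simulated data. Standard errors are the log2 fold change over the square root of the F statistic. CPM are summed counts per 1000000 UMIs of the class, with 1 added before logarithms. Replicates are separate pigs, and the replicate numbers of the labels did not pair them. Genes beyond the members were named by a rule: those called in a list, at most 6 per list and class, or the 2 of smallest p, of which a part is printed, and the 5 most like and 3 least like the members. A few genes that this rule takes are not reported here. Alternatives were DESeq2 1.42.0 size factors and Wald test, limma 3.58.1 voom, no filter, a replicate block, no doublet removal, nuclei of at least 1000 UMIs, a resolution of 0.5, and leaving out each pig; clusters made without chaperone genes, and leaving out the cluster led by them, were added after seeing the data. Promoter windows come from the RefSeq annotation of Sscrofa11.1.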

Additional observations from a re-analysis of the deposited data

How the results depend on the processing

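No member was called in any class under DESeq2 size factors, limma-voom, a minimum of 1000 UMIs, no doublet removal, a resolution of 0.5 or clusters made without chaperone genes. With no filter on low counts, 1 member was called in smooth muscle-like nuclei (HSPA8), 3 in fibroblast-like (HSP90AA1, HSPA8, HSPH1), 1 in endothelial-like (DNAJB1) and 1 in macrophage-like nuclei (HSPH1). The DESeq2 Wald test called 1 in fibroblast-like nuclei. The replicate block, which takes the replicate number as a pairing, called 4 members in fibroblast-like nuclei (DNAJB1, HSP90AA1, HSPA8, HSPH1). The numbers mark no shared animal. Over genes, the deviations of same-numbered pigs from their group means correlated at -0.06 to 0.09. Leaving out 1 pig at a time called 0 to 2 members in fibroblast-like nuclei and 0 to 1 in endothelial-like nuclei. Without the cluster led by heat shock genes, 2 members passed in the fit over classes, a count with no share of all genes beside it. The other counts of called members in this paragraph also stand without that share, so none is read as a result about the members.

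Calls over all genes moved more. The count of 29 in smooth muscle-like nuclei became 15 under DESeq2 size factors, 852 with no filter, 545 with the Wald test, 12 with limma-voom, 64 with the replicate block, 48 with no doublet removal, 10 at a resolution of 0.5, 49 without the heat shock cluster and 0 to 82 leaving out a pig. In fibroblast-like nuclei, 27 were called, and 246 with no filter, 97 with the Wald test, 356 with the block, 46 with no doublet removal and 0 to 191 leaving out a pig. In endothelial-like nuclei 529 were called, 1076 with no filter and 113 to 488 leaving out a pig. In macrophage-like nuclei 56 were called, 462 with no filter, 261 with the Wald test, 0 with limma-voom and with the block, 91 with no doublet removal and 0 to 163 leaving out a pig. Over all kept nuclei 1 was called, 561 with no filter, 796 with the Wald test, 411 with the block, 2 at 1000 UMIs or more and 0 to 350 leaving out a pig.

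The log2 fold change turned its sign for several members, none of them called in the main fit. For smooth muscle-like nuclei, limma-voom gave 0.85 for HSPH1, 0.63 for HSP90AA1, 0.54 for HSP90AB1, 1.95 for DNAJB1 and 0.088 for BAG3. The replicate block gave 0.69, 0.48 and 0.36 for HSPH1, HSP90AA1 and HSP90AB1 and 1.17 for DNAJB1. No doublet removal gave 0.69, 0.87, 0.54, 1.16 and 0.56 for HSPH1, HSP90AA1, HSP90AB1, DNAJB1 and BAG3, and leaving out the heat shock cluster 0.63, 0.92, 0.58, 1.13 and 0.52. Clusters made without chaperone genes gave 0.19 for HSP90AA1, 0.11 for HSP90AB1 and 0.045 for BAG3. In endothelial-like nuclei, limma-voom gave 0.015 for HSPA8 and 0.17 for HSP90AA1, and the replicate block 0.048 and 0.34. In macrophage-like nuclei, HSPA8 was at 0.10 with no filter and 0.063 with limma-voom. Leaving out a pig turned the sign of HSPH1 -1.41 to 3.00, HSPB1 -0.10 to 3.06, HSP90AA1 -1.14 to 2.46, HSP90AB1 -1.14 to 2.08, DNAJB1 -1.47 to 4.98, HSPD1 -1.39 to 0.33, HSPE1 -0.44 to 1.74 and BAG3 -1.20 to 1.28 in smooth muscle-like nuclei, of HSP90AB1 -0.32 to 1.14 and HSPD1 -0.047 to 1.19 in fibroblast-like nuclei, of HSPB1 -1.31 to 2.19, HSPA8 -0.89 to 1.02, HSP90AA1 -1.10 to 1.93, DNAJB1 -3.06 to 1.11, HSPD1 -0.57 to 0.79 and BAG3 -0.29 to 1.18 in endothelial-like nuclei and of HSPA8 -0.59 to 0.69, HSP90AB1 -0.60 to 2.91 and DNAJB1 -0.41 to 1.83 in macrophage-like nuclei; with 1 control pig left, its spread was taken from the obese pigs. The cause of these turns was not tested. Of the values of single genes under all settings, 653 kept direction and side of the threshold, 57 turned sign, 14 gained and 55 lost a call.

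The limits are those of 5 pigs. A p that misses the threshold does not show that the diets gave equal levels. Control macrophage-like nuclei were 58 and 36, so their values rest on few UMIs. Classes rest on markers and on rules set in part after the values were seen.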
